A study of Homo sapiens with 4 samples.

Results

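The 34 genes described here make, regulate or export sterols and fatty acids: the sterol sensor proteins and SREBP transcription factors, the enzymes of the mevalonate and cholesterol pathways, the enzymes that build and desaturate fatty acids, a sterol transfer protein, and targets of the liver X receptors. They were picked by name, by symbol and then by Ensembl identifier. All 34 were found among the 61860 gene identifiers of the count table, and all 34 passed the filter on low counts that left 17492 genes to be tested. The RNA was that of NK-92 cells, a line of human natural killer (NK) cells that depends on interleukin 2 (IL-2). The edited line, ΔOGT-ISS, lacks an intronic splicing silencer of OGT, removed with CRISPR-Cas9, and is set against the unedited line (WT). OGT encodes the enzyme that adds the sugar O-GlcNAc to proteins inside the cell. Each line has 1 library from cells given IL-2 24 hours before RNA extraction and 1 from cells given it 48 hours before, so 4 libraries fill the 4 combinations and no combination is repeated. The labels give human IL-2 to all 4, although only the titles of the 24 h libraries mention it, and they do not say whether ΔOGT-ISS is 1 clone or a pool. Both lines grew in the same medium with fetal bovine serum and horse serum, which also supply cholesterol and fatty acids from outside.

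Cells hold their sterol level by feedback. When membranes of the endoplasmic reticulum run low in cholesterol, the escort protein SCAP carries the precursors of SREBP-1 and SREBP-2 (genes SREBF1 and SREBF2) to the Golgi, where they are cut, and the released factors switch on cholesterol and fatty acid genes; when sterols are plentiful, INSIG1 and INSIG2 hold SCAP back. INSIG1 is itself an SREBP target, so its mRNA is often read beside those of the enzymes. Oxidised sterols act through the liver X receptors (LXR), which switch on the exporters ABCA1 and ABCG1 and the ubiquitin ligase MYLIP. Lymphocytes that grow under IL-2 need new membrane, and SREBP activity is known to accompany the metabolic response of NK cells to cytokines.

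SREBPs bind sterol regulatory elements and work beside NF-Y, which binds CCAAT boxes. RefSeq promoter windows (GRCh38.p14, from 250 bases before to 50 after the gene's start) matched 29 of the 34 genes by symbol, and ACAT2, FDFT1, SQLE, FASN and ABCG1 had none. The letters TCACNCCAC, the core of a textbook sterol regulatory element, were searched on both strands, and so were the letters CCAAT, which are ATTGG on the other strand. The 2 letter strings do not overlap. A gene with more than 1 window was counted once, as holding the letters if any of its windows did. TCACNCCAC was present for 1 of the 29 genes, or 3.45%, and for 379 of all 27305 genes with windows, or 1.39%. CCAAT was present for 21 of the 29 genes, or 72.4%, and for 10846 of the 27305 genes, or 39.7%. The window with both is that of SREBF2, where TCACNCCAC starts at base −133 from the gene's start and CCAAT lies at base −106 on the other strand. The 4 windows printed here are that of SREBF2, which encodes the pathway's main transcription factor, and those of INSIG1, MSMO1 and SCD, whose ΔOGT-ISS to WT ratios lay on opposite sides of 1 at the 2 IL-2 times. Capitals mark both letter strings, and a match is a description of these letters, not of a bound site.
SREBF2, chr22:41832855-41833154, plus strand: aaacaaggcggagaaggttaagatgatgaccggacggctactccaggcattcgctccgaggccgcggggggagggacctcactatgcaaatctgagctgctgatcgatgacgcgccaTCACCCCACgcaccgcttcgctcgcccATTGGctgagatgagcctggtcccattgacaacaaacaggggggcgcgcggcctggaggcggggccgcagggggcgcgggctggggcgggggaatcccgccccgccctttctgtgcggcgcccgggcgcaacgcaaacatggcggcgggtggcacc
INSIG1, chr7:155297628-155297927, plus strand: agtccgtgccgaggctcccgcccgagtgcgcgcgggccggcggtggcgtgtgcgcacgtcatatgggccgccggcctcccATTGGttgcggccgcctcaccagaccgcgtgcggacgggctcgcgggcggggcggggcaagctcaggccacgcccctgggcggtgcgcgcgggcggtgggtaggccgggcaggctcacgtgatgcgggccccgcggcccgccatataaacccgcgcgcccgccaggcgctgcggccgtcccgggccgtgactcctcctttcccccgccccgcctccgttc
MSMO1, chr4:165327419-165327718, plus strand: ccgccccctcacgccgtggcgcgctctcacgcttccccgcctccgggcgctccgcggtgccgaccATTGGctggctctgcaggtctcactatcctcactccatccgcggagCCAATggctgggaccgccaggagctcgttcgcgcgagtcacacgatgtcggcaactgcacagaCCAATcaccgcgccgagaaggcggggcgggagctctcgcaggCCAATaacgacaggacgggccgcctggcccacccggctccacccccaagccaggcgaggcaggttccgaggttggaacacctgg
SCD, chr10:100346983-100347282, plus strand: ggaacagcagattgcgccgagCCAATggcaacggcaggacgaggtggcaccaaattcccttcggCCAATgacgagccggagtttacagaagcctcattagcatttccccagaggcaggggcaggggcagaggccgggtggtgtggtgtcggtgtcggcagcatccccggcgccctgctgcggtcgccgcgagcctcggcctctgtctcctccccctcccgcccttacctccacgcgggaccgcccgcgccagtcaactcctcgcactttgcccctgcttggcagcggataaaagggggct

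The libraries differed in depth, with 28576566 counts in ΔOGT-ISS and 24809269 in WT at 24 h, and 11305599 in ΔOGT-ISS and 10889986 in WT at 48 h. A count of 3 was worth 0.104 and 0.122 CPM (counts scaled by TMM to a common library size) at 24 h and 0.263 and 0.284 CPM at 48 h. The 24 h and 48 h libraries also differed in composition. RN7SL1, the RNA of the signal recognition particle, held 2.76% of counts in ΔOGT-ISS and 4.39% in WT at 24 h, and 0.394% and 0.426% at 48 h. Over 9854 genes, the correlation of log CPM between ΔOGT-ISS and WT was 0.966 at 24 h and 0.953 at 48 h, and that between 24 h and 48 h was 0.871 in ΔOGT-ISS and 0.854 in WT. OGT itself had 384.0 CPM in ΔOGT-ISS against 449 in WT at 24 h and 399 against 446 at 48 h, and counts per gene do not check a deletion inside an intron. The NK marker NCAM1 was abundant at 474 and 452 CPM at 24 h and 263 CPM in both lines at 48 h, while the T cell marker CD3D did not pass 0.568 CPM in any library. Within the NK list, KLRD1 and IL2RB were also close in both lines. CD2 was lower in ΔOGT-ISS at 24 h (10.8 CPM against 42.1 in WT) and at 48 h (5.70 against 29.7), as was NKG7. GZMB had 327 CPM in ΔOGT-ISS against 1124 in WT at 24 h, and 850 against 852 at 48 h. PRF1 was lower in ΔOGT-ISS at 24 h and higher at 48 h. CD7 had 11.4 CPM in ΔOGT-ISS and 10.2 in WT at 24 h, and 0.613 and 0.662 at 48 h. TRBC1 (67.1 to 115 CPM), TRAC (19.9 to 24.0 CPM) and PAX5 (52.0 to 80.8 CPM), from the T and B cell lists, were present. CD3G, also from the T cell list, had 1.69 CPM in ΔOGT-ISS and 0.0406 in WT at 24 h, and 0.526 and 0 at 48 h. From the myeloid list, CSF1R (3.52 to 9.46 CPM) and ITGAM (4.04 to 8.61 CPM) were lower in ΔOGT-ISS at both times. The 8 NK markers summed to 2817 CPM in ΔOGT-ISS and 4358 in WT at 24 h, and to 2555 and 2709 at 48 h, and their part in the results was not tested.

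**Figure D1:**
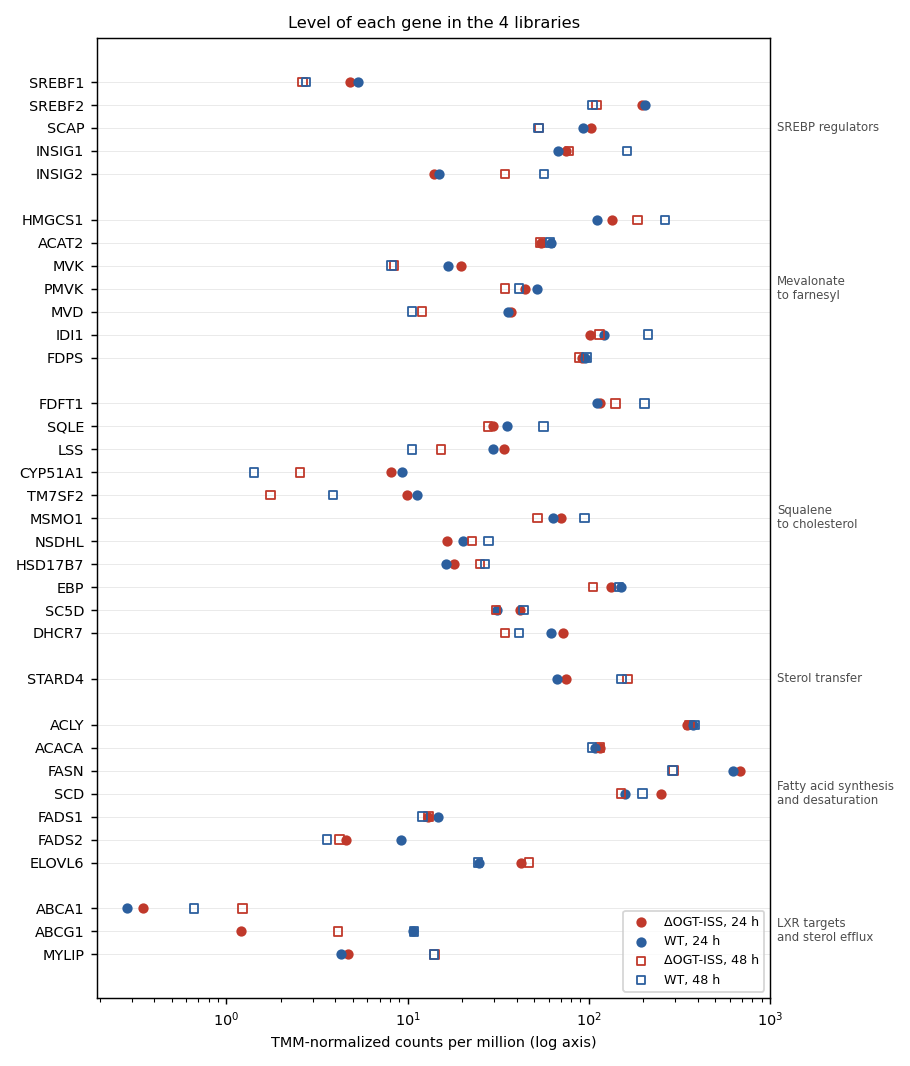
TMM-normalized CPM (log axis) of the 34 genes, grouped by role, with 1 symbol for each of the 4 libraries: red for ΔOGT-ISS, blue for WT, filled circles for 24 h and open squares for 48 h. ABCG1 is the gene whose red symbols lie farthest left of its blue ones, at 1.21 and 4.12 CPM against 10.7 and 10.9 CPM.

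Levels between genes can be set side by side per length, as in the authors' FPKM, which divides counts by transcript length and library size. EBP, the sterol isomerase, was the most abundant per length at a mean of 119 FPKM (lowest library 95.04, highest 133), ahead of ACLY, which makes cytosolic acetyl-CoA, at 85.5 FPKM (82.9 to 87.5). FDFT1, FDPS, FASN and IDI1 followed at 69.5, 65.7, 56.0 and 49.7 FPKM. The ranges of FDFT1 (54.0 to 96.7), FDPS (63.0 to 67.1), FASN (33.3 to 81.8) and IDI1 (37.5 to 75.1) overlap. That of FDFT1 also covers the range of ACLY and reaches into that of EBP. At the other end stood SREBF1 at 0.791 FPKM (0.542 to 1.08) and ABCA1 at 0.0604 FPKM (0.0271 to 0.119). SREBF2 averaged 29.4 FPKM (19.5 to 38.7), so that its lowest library lay above the highest of SREBF1. ABCA1 rested on 10 counts in ΔOGT-ISS and 7 in WT at 24 h and on 14 and 7 at 48 h, too few to show any but a very large difference.

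The first question of the design is what the loss of the OGT silencer does to expression. No gene of the 34 passed an adjusted p of 0.05 in either direction between ΔOGT-ISS and WT (edgeR quasi-likelihood test with IL-2 time in the model, Benjamini-Hochberg over all 17492 genes). Of all genes tested, 26 were called higher in ΔOGT-ISS, or 0.149%, and 55 lower, or 0.314%. At an unadjusted p under 0.05 edgeR had 1 of the 34 higher, the fatty acid elongase ELOVL6, and 3 lower, the sterol exporter ABCG1 and the synthesis enzymes IDI1 and SQLE, against 3.50% and 5.59% of all genes tested, so these counts are near the background. DESeq2 called 0 higher and 1 lower, ABCG1 (adjusted p = 0.00958), while over all genes it called 90 higher and 213 lower. The median log2 difference over the 34 was −0.070, against 0.018 over all genes tested. A bulk library cannot tell fewer expressing cells from less RNA per cell, here as in every result that follows. The p-values measure the spread among 4 single libraries with 1 residual degree of freedom. That degree of freedom is the change of the line difference between the IL-2 times. A gene whose lines change order thus tends to have a wide SE, and no p-value measures the spread between repeated cultures.

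ABCG1 (chr21:42199689-42297244 on GRCh38), which moves cholesterol out of cells to lipoproteins, had 1.21 CPM in ΔOGT-ISS against 10.7 in WT at 24 h and 4.12 CPM in ΔOGT-ISS against 10.9 in WT at 48 h. These values rest on 35 counts in ΔOGT-ISS and 264 in WT at 24 h, and on 47 and 115 at 48 h. Both ΔOGT-ISS libraries lay below both WT libraries, and the WT libraries differed little. The log2 difference was −2.27 (SE 0.48, edgeR adjusted p = 0.114), and it was −1.44 without the 24 h library of ΔOGT-ISS and −3.16 without its 48 h library. The ratio was 0.113 (interval 0.0768 to 0.161) at 24 h and 0.379 (interval 0.264 to 0.536) at 48 h, where the interval is the exact 95% interval from the counts of the 2 libraries and covers counting error only. Without the low-count filter edgeR called it lower with an adjusted p of 1.62e-06. That setting called 378 genes lower over all genes, against 55 with the filter. Another LXR target, MYLIP, had 4.69 CPM in ΔOGT-ISS and 4.31 in WT at 24 h, and 14.1 in ΔOGT-ISS and 14.0 in WT at 48 h, with a log2 difference of 0.066 (SE 0.28, edgeR adjusted p = 0.985). The median of the 3 LXR and efflux genes, 0.066 on the log2 scale, is that same value of MYLIP and says nothing further about the set.

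ELOVL6 (chr4:110045846-110199199), which lengthens palmitic acid to stearic acid, went the other way. It had 42.3 CPM in ΔOGT-ISS against 24.7 in WT at 24 h and 46.8 CPM in ΔOGT-ISS against 24.5 in WT at 48 h. Both ΔOGT-ISS libraries lay above both WT libraries, at nearly the same ratio, 1.71 (interval 1.55 to 1.89) at 24 h and 1.91 (interval 1.64 to 2.22) at 48 h. The log2 difference was 0.85 (SE 0.18, edgeR adjusted p = 0.114), and 0.61 once the median of the neighbouring genes on the chromosome was taken off. Without the low-count filter edgeR called it higher with an adjusted p of 0.0335. That setting called 168 genes higher over all genes, against 26 with the filter. The enzymes just before it in the pathway had values nearer to 0: ACLY had a log2 difference of −0.10, ACACA, the carboxylase that commits acetyl-CoA to fatty acids, 0.12, and FASN, the synthase itself, 0.066.

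**Figure D2:**
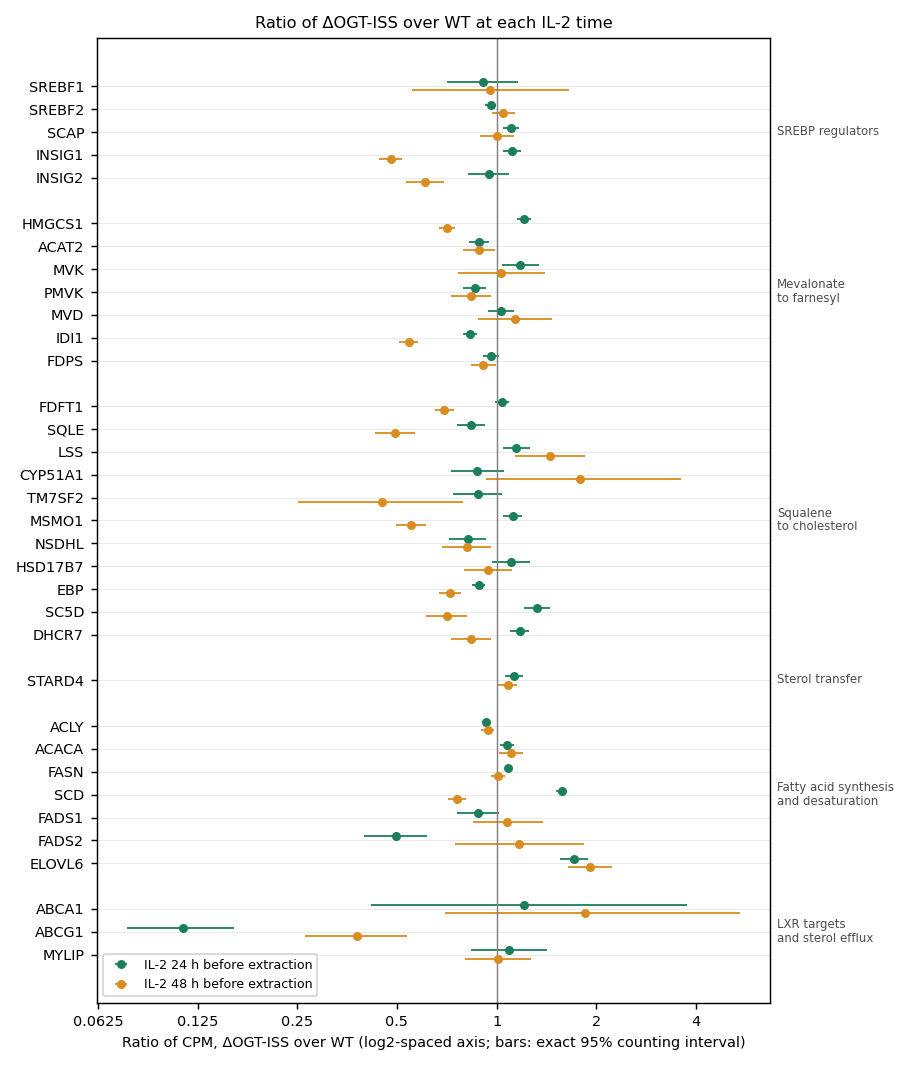
Ratio of CPM in ΔOGT-ISS over WT for each of the 34 genes, on a log2-spaced axis, with the 24 h ratio in green above the 48 h ratio in orange; bars are exact 95% counting intervals of 1 library against 1. INSIG1 sits at 1.11 at 24 h and 0.479 at 48 h, ELOVL6 right of 1 and ABCG1 left of 1 at both times.

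More of the 34 genes lay below WT in the 48 h libraries than in the 24 h libraries. Among genes averaging at least 10 CPM, 27 of the 34 qualified, and at 48 h the counting interval lay below 1 for 16 of those 27, against 35.5% of the 8658 genes of that level, and above 1 for 4, against 28.4%. At 24 h the interval lay below 1 for 8 of the 27, against 30.9% of all, and above 1 for 13, against 36.0%. Those above 1 at 48 h were ELOVL6, STARD4, ACACA and LSS. With 1 library a group these ratios carry no test of the lines, and the intervals do not hold the variation between cultures. Over all 34 genes the median ratio was 1.03 at 24 h and 0.926 at 48 h.

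Among the regulators, INSIG1 (chr7:155297776-155310235), the sterol-sensitive anchor that is itself an SREBP target, had 75.2 CPM in ΔOGT-ISS against 67.6 in WT at 24 h and 77.7 CPM in ΔOGT-ISS against 162 in WT at 48 h. The WT library at 48 h was thus well above the other 3, which lay within 67.6 to 77.7 CPM. The ratio of ΔOGT-ISS over WT was 1.11 (interval 1.04 to 1.19) at 24 h and 0.479 (interval 0.441 to 0.519) at 48 h, and the log2 difference with both times in the model was −0.45 (SE 0.27, edgeR adjusted p = 0.748). INSIG2, the second anchor, had 14.0 CPM in ΔOGT-ISS and 14.8 in WT at 24 h, and 34.5 in ΔOGT-ISS and 56.8 in WT at 48 h, with ratios of 0.947 at 24 h and 0.608 (interval 0.534 to 0.692) at 48 h. The genes for the escort and the factors themselves had ratios nearer to 1 at 48 h than those of INSIG1 and INSIG2. SCAP had ratios of 1.11 (interval 1.05 to 1.17) at 24 h and 1.00 at 48 h. SREBF2 had 0.961 (interval 0.925 to 0.998) at 24 h and 1.05 at 48 h. SREBF1 had 0.907 at 24 h and 0.958 (interval 0.556 to 1.65) at 48 h. That 48 h ratio of SREBF1 rests on 30 counts in ΔOGT-ISS and 29 in WT, and its interval holds the INSIG2 ratio of 0.608.

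In the mevalonate branch, which runs from acetyl-CoA to farnesyl diphosphate, 0 of 7 genes passed the edgeR test, with a median log2 difference of −0.11, and 1 was lower at an unadjusted p under 0.05. That gene was IDI1, the isopentenyl diphosphate isomerase, with 101 CPM in ΔOGT-ISS and 122 in WT at 24 h, and 115 in ΔOGT-ISS and 212 in WT at 48 h. Its ratio was 0.831 (interval 0.790 to 0.875) at 24 h and 0.542 (interval 0.506 to 0.581) at 48 h, and the log2 difference was −0.57 (SE 0.19, edgeR adjusted p = 0.355), or −0.30 with the median of neighbouring genes taken off. HMGCS1, the synthase that makes HMG-CoA, had 134 CPM in ΔOGT-ISS and 111 in WT at 24 h, and 186 in ΔOGT-ISS and 263 in WT at 48 h. Its ratio was 1.21 (interval 1.15 to 1.27) at 24 h and 0.707 (interval 0.668 to 0.749) at 48 h, so the order of the lines turned between the times. The thiolase ACAT2 (0.884 and 0.886), the mevalonate kinase MVK (1.18 and 1.03), the phosphomevalonate kinase PMVK (0.858 and 0.839), the decarboxylase MVD (1.03 and 1.13) and the farnesyl diphosphate synthase FDPS (0.964 and 0.911) had ratios at 24 h and 48 h nearer to 1 than those of IDI1 and HMGCS1. ACAT2 shares exonic bases with SOD2-OT1 (33.91%), SOD2 (26.54%) and TCP1 (9.23%) on the opposite strand. Other such pairs include HMGCS1 with AC114947.2, IDI1 with IDI2-AS1, FDPS with RUSC1-AS1, MVK with MMAB (4.72%), SREBF1 with RAI1 and FADS1 with FADS2. Without a stated strand setting reads of such pairs cannot be told apart. AC114947.2 received 0 counts in each library, SOD2-OT1 at most 29 and MMAB 97 to 307. The SOD2 identifier used for the overlap was absent from the counts.

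In the sterol branch from squalene to cholesterol, 0 of 11 genes passed the edgeR test. Their median log2 ratio of ΔOGT-ISS over WT was 0.054 at 24 h and −0.47 at 48 h, while over all genes tested it was 0.0048 and 0.018. MSMO1 (chr4:165327623-165343160), the C4-methyl sterol oxidase, had 70.5 CPM in ΔOGT-ISS against 63.1 in WT at 24 h and 52.1 CPM in ΔOGT-ISS against 94.5 in WT at 48 h. Its ratio was 1.12 (interval 1.05 to 1.19) at 24 h and 0.551 (interval 0.497 to 0.610) at 48 h. SQLE, the squalene epoxidase, had 29.6 CPM in ΔOGT-ISS and 35.3 in WT at 24 h, and 27.9 in ΔOGT-ISS and 56.4 in WT at 48 h, a ratio of 0.837 (interval 0.761 to 0.921) at 24 h and 0.494 (interval 0.430 to 0.567) at 48 h, and a log2 difference of −0.63 (SE 0.22, edgeR adjusted p = 0.403). Here, as for INSIG1, IDI1, HMGCS1 and MSMO1, the WT library at 48 h was the highest of the 4.

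FDFT1, which joins 2 farnesyl groups to squalene, had 115 CPM in ΔOGT-ISS and 111 in WT at 24 h, and 141 in ΔOGT-ISS and 203 in WT at 48 h, with ratios of 1.04 at 24 h and 0.694 (interval 0.651 to 0.741) at 48 h. SC5D, the sterol desaturase, had 41.6 CPM in ΔOGT-ISS and 31.4 in WT at 24 h, and 30.9 in ΔOGT-ISS and 43.6 in WT at 48 h, with ratios of 1.33 (interval 1.21 to 1.45) at 24 h and 0.707 (interval 0.614 to 0.814) at 48 h. DHCR7, the reductase that ends a main route to cholesterol, had 72.4 CPM in ΔOGT-ISS and 61.6 in WT at 24 h, and 34.6 in ΔOGT-ISS and 41.3 in WT at 48 h, with ratios of 1.18 (interval 1.10 to 1.26) at 24 h and 0.839 (interval 0.730 to 0.964) at 48 h. EBP was below 1 at 24 h and 48 h (0.884 and 0.723), and so was NSDHL, a sterol dehydrogenase (0.817 and 0.813). TM7SF2, a sterol reductase, reached only 1.75 CPM in ΔOGT-ISS and 3.88 in WT at 48 h, for a ratio of 0.452 (interval 0.251 to 0.789). LSS, the lanosterol synthase, was the exception above 1 at both times, at 1.15 (interval 1.04 to 1.27) at 24 h and 1.45 (interval 1.14 to 1.85) at 48 h. HSD17B7 (1.11 and 0.943) and CYP51A1 (0.875 and 1.79) had intervals that held 1 at both times.

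Among the 7 fatty acid genes, FADS2 and SCD had the ratios that differed most between the times. SCD (chr10:100347124-100364834), which makes oleic from stearic acid, had 250.1 CPM in ΔOGT-ISS against 159 in WT at 24 h and 150.3 CPM in ΔOGT-ISS against 198 in WT at 48 h. The ΔOGT-ISS library at 24 h was the highest of the 4 and the ΔOGT-ISS library at 48 h the lowest. Its ratio was 1.57 (interval 1.51 to 1.64) at 24 h and 0.759 (interval 0.711 to 0.809) at 48 h, and with both times in the model the log2 difference was 0.13 (SE 0.25, edgeR adjusted p = 0.955). FADS2, a desaturase of polyunsaturated fatty acids, had 4.55 CPM in ΔOGT-ISS and 9.18 in WT at 24 h, and 4.21 in ΔOGT-ISS and 3.60 in WT at 48 h, with ratios of 0.496 (interval 0.397 to 0.617) at 24 h and 1.17 (interval 0.749 to 1.84) at 48 h. Its partner FADS1 had ratios of 0.877 at 24 h and 1.08 at 48 h. STARD4, which carries sterol between membranes and is also an SREBP target, had ratios of 1.13 at 24 h and 1.08 at 48 h.

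Among the 27 genes at 10 CPM or more, 6 had intervals above 1 at 24 h and below 1 at 48 h: INSIG1, HMGCS1, MSMO1, SC5D, DHCR7 and SCD. Of all 8658 genes of that level, 803 did so, or 9.27%. No test of this turn can be had with 1 library for each line and time. With genes cut into 4 equal bins by rising GC content of the longest transcript, the median log2 ratio at 48 h over all genes was −0.038, 0, 0.026 and 0.095. The 9, 5, 8 and 12 of the 34 genes in those bins had medians of −0.50, −0.40, −0.24 and 0.011. At 24 h the medians by bin were 0.16, 0.15, −0.18 and −0.0061 for the 34 genes and 0.093, 0.037, −0.028 and −0.084 over all genes. The part of GC content in the ratios was not tested.

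The second question is how the genes differed between cells given IL-2 24 h and 48 h before extraction. Here 9 of the 34 were called higher at 24 h, against 15.0% of all genes tested, and 4 were called lower, against 10.9% (edgeR with line in the model, adjusted p under 0.05). DESeq2 called 9 higher and 5 lower. Higher at 24 h were the regulators SREBF2 and SCAP, the mevalonate enzymes MVK and MVD, the sterol enzymes LSS, CYP51A1, TM7SF2 and DHCR7, and FASN. Lower at 24 h were INSIG2, HMGCS1, STARD4 and MYLIP. Without the 24 h library of ΔOGT-ISS 3 were called higher and 1 lower, and without that of WT 2 and 1, while calls over all genes fell as well. The log2 differences of the 13 called genes kept their direction in both fits and moved by at most 0.186. That bound does not cover the fits without a 48 h library. At 48 h some called genes differed widely between the lines. TM7SF2 had 1.75 CPM in ΔOGT-ISS and 3.88 in WT, and CYP51A1 had 2.54 and 1.42. Without the 48 h library of ΔOGT-ISS 8 were higher and 7 lower, and without that of WT 9 and 3. After thinning both 24 h libraries to 48 h depth, 9 were higher and 7 lower.

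**Figure D3:**
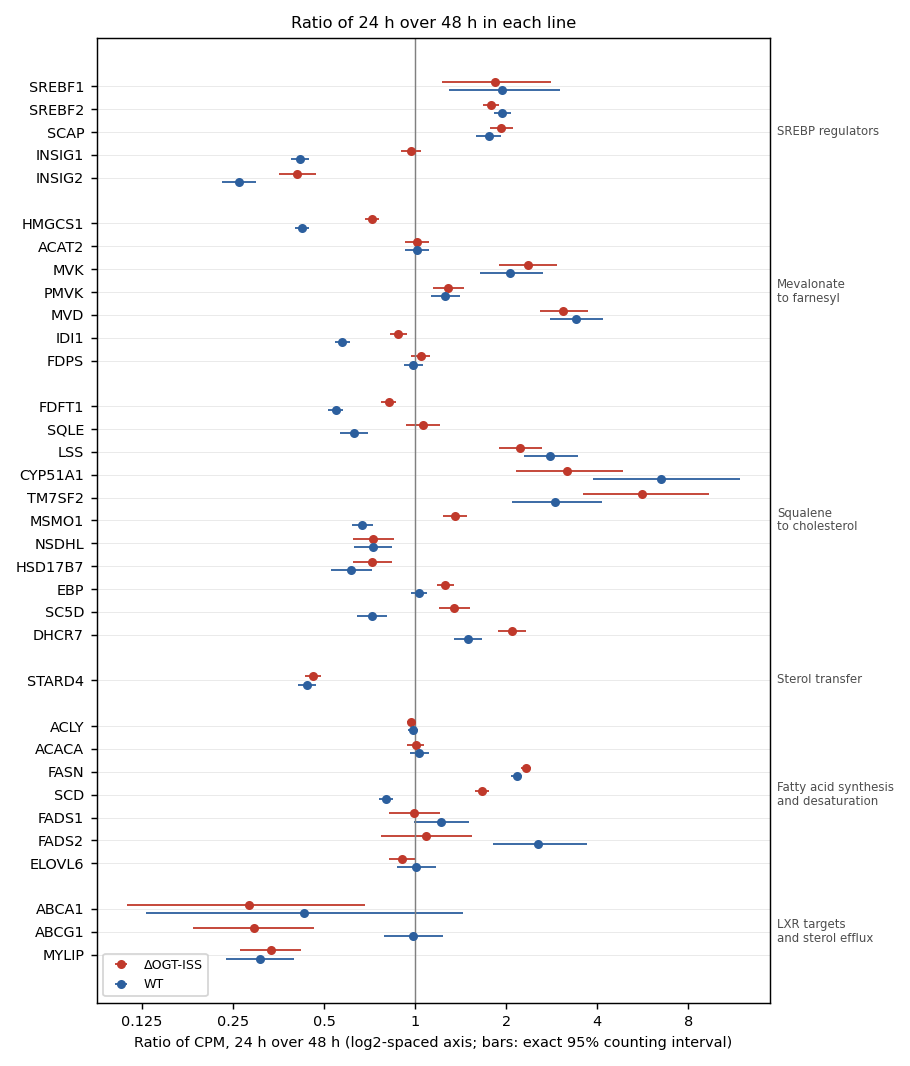
Ratio of CPM at 24 h over 48 h in each line (log2-spaced axis), ΔOGT-ISS in red above WT in blue, with exact 95% counting intervals of 1 library against 1. MVD lies right of 1 in both lines at 3.09 and 3.40, and SCD lies right of 1 in ΔOGT-ISS at 1.66 and left of it in WT at 0.803.

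SREBF2 had 196 CPM in ΔOGT-ISS and 204 in WT at 24 h, against 110.2 and 105 at 48 h, a log2 difference of 0.90 (SE 0.16, edgeR adjusted p = 0.00564). SCAP had 102 CPM in ΔOGT-ISS and 92.6 in WT at 24 h, against 53.1 and 52.9 at 48 h, a difference of 0.88 (SE 0.16, edgeR adjusted p = 0.00678). Among the enzymes the largest differences that passed were those of CYP51A1, the lanosterol demethylase, TM7SF2 and MVD. CYP51A1 had 8.11 CPM in ΔOGT-ISS and 9.26 in WT at 24 h, against 2.54 and 1.42 at 48 h, a log2 difference of 2.15 (SE 0.43, edgeR adjusted p = 0.00959). Its counts are uncertain, because 79.35% of its exonic bases also belong to AC000120.2, a protein-coding locus on the same strand that itself received at most 2 counts in a library. FDPS, CYP51A1, HSD17B7, SCD and FADS2 also have annotated pseudogenes, and how reads that fit both were counted is not given in the sources used here. TM7SF2 had 9.90 CPM in ΔOGT-ISS and 11.3 in WT at 24 h, against 1.75 and 3.88 at 48 h, a log2 difference of 1.99 (SE 0.38, edgeR adjusted p = 0.00863). MVD had 37.1 CPM in ΔOGT-ISS and 36.0 in WT at 24 h, against 12.0 and 10.6 at 48 h, a log2 difference of 1.69 (SE 0.20, edgeR adjusted p = 0.00143).

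LSS differed by 1.31, MVK by 1.14 and DHCR7 by 0.82 on the log2 scale, and both 24 h libraries of each lay above both 48 h libraries. FASN, the most heavily counted of the 34 at 24 h, had 682 CPM in ΔOGT-ISS and 629 in WT at 24 h, against 294 and 290.5 at 48 h, a log2 difference of 1.16 (SE 0.16, edgeR adjusted p = 0.00235). ACACA and ACLY, the steps before it, differed by 0.025 and −0.032 and did not pass. INSIG2 had 14.0 CPM in ΔOGT-ISS and 14.8 in WT at 24 h, against 34.5 and 56.8 at 48 h, a log2 difference of −1.62 (SE 0.22, edgeR adjusted p = 0.00227). STARD4 had 75.4 CPM in ΔOGT-ISS and 66.7 in WT at 24 h, against 164 and 152 at 48 h, a log2 difference of −1.15 (SE 0.16, edgeR adjusted p = 0.00218), and MYLIP, which marks lipoprotein receptors for breakdown, had 4.69 CPM in ΔOGT-ISS and 4.31 in WT at 24 h, against 14.1 and 14.0 at 48 h, a log2 difference of −1.64 (SE 0.29, edgeR adjusted p = 0.00584). HMGCS1 differed by −0.86 (SE 0.21, edgeR adjusted p = 0.0199), with 24 h over 48 h ratios of 0.718 in ΔOGT-ISS and 0.421 in WT.

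The same 4 libraries seen along time give the turn of the lines in another form, and these ratios share their libraries with the line ratios above. INSIG1 had a 24 h over 48 h ratio of 0.967 (interval 0.894 to 1.05) in ΔOGT-ISS and 0.416 (interval 0.389 to 0.445) in WT. MSMO1 had 1.35 (interval 1.24 to 1.49) in ΔOGT-ISS and 0.668 (interval 0.616 to 0.724) in WT, SC5D 1.35 in ΔOGT-ISS and 0.719 in WT, and SCD 1.66 (interval 1.58 to 1.75) in ΔOGT-ISS and 0.803 (interval 0.761 to 0.847) in WT. Read as ΔOGT-ISS and then WT, IDI1 (0.880 and 0.574), FDFT1 (0.817 and 0.546) and SQLE (1.06 and 0.626) likewise had the lower ratio in WT. In the same order SREBF2 (1.78 and 1.94), STARD4 (0.459 and 0.439), FASN (2.32 and 2.16) and MYLIP (0.332 and 0.307) had ratios close to each other in the 2 lines.

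Base composition moved with IL-2 time across the transcriptome. By rising bin of GC content, the median log2 difference of 24 h over 48 h over all genes was −0.365, −0.153, 0.24 and 0.901, and 40.5% of genes in the top bin were called higher. Of the 9 genes called higher, 8 lie in that top bin, and CYP51A1 does not. All 4 called lower lie in the 2 lower bins. With offsets for GC content and transcript length 1 of the 34 was called higher, CYP51A1, and 3 lower, INSIG2, STARD4 and MYLIP, while over all genes the calls were 1053 higher (6.02%) and 1295 lower (7.40%), against 2625 and 1910 without the offsets and 3714 and 1183 without the low-count filter. Under those offsets FASN stood at −0.26 and SCAP at −0.25, neither past the test. Library composition and IL-2 time cannot be told apart for these genes.

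**Figure D4:**
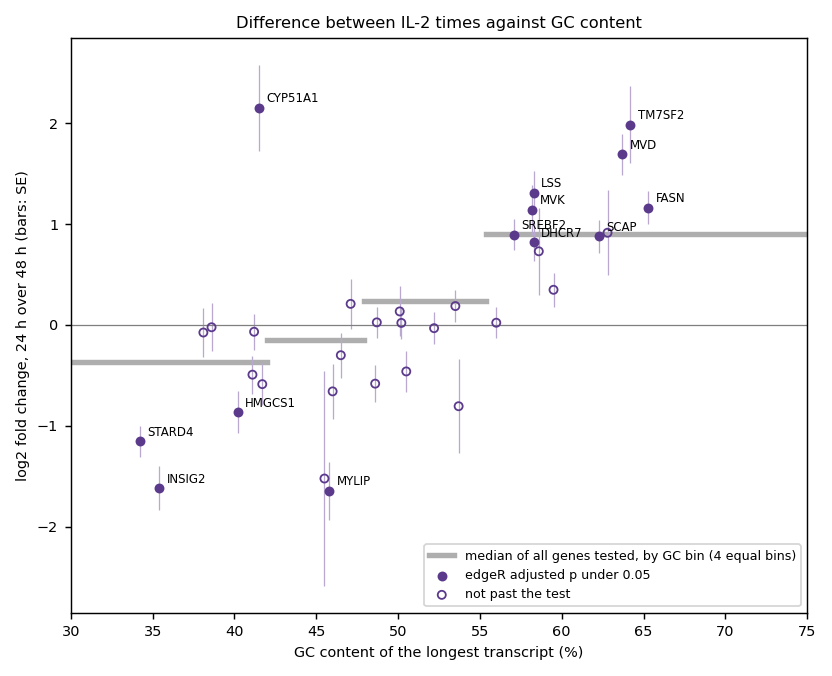
Log2 difference of 24 h over 48 h (with SE) against GC content of the longest transcript for the 34 genes, filled where edgeR's adjusted p is under 0.05; grey bars give the median of all genes tested in each of 4 equal bins of GC content. The filled points above 0 lie in the top bin, apart from CYP51A1 at 41.5%, and those below 0 lie between 34.2% and 45.8%.

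A list of 56 other genes of the same pathways, which cover SREBP processing, further sterol and isoprenoid enzymes, uptake and ester storage, the LXR proteins and fatty acid supply, was read in the same fits. All 56 were found and 53 tested, with GRAMD1B, SMPDL3A and ME1 below the filter. Between the lines 0 of 53 passed the edgeR test, 2 were higher and 2 lower at an unadjusted p under 0.05 (3.50% and 5.59% of all genes), DESeq2 called 0, and the median log2 difference was −0.041. Between the times 13 of 53 were called higher at 24 h, against 15.0% of all genes, and 2 lower, against 10.9%, with a median of 0.22, against 0.069 over all genes tested. The largest of the 13 were SLC25A1, the mitochondrial citrate carrier, at 2.23 (SE 0.33, edgeR adjusted p = 0.00302), the elongase ELOVL1 at 1.72 (SE 0.19, edgeR adjusted p = 0.00104), the LXR partner RXRA at 1.70 (SE 0.30, edgeR adjusted p = 0.00586) and TECR, the reductase that ends each elongation cycle, at 1.41 (SE 0.18, edgeR adjusted p = 0.00178). Both called lower activate fatty acids to their CoA esters, ACSL1 at −1.59 (SE 0.24, edgeR adjusted p = 0.00332) and ACSL4 at −0.78 (SE 0.19, edgeR adjusted p = 0.0199). ACSL1 had 85.7 CPM in ΔOGT-ISS and 141 in WT at 24 h, against 364 and 303 at 48 h. With the GC and length offsets 5 of the 53 were called higher, against 6.02% of all genes, and 4 lower, against 7.40%. ELOVL1 at 1.30, TECR at 1.53 and ACSL1 at −1.48 were still called. SLC25A1 at 0.93 (edgeR adjusted p = 0.0970), RXRA at 0.69 (edgeR adjusted p = 0.174) and ACSL4 at −0.42 (edgeR adjusted p = 0.142) were not.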

How the data were processed

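RNA of 4 libraries (ΔOGT-ISS and WT NK-92 cells, each with IL-2 given 24 h or 48 h before extraction) was depleted of ribosomal RNA and made into CORALL libraries, per the labels' protocols. The authors deposited raw counts, whole numbers of reads per Ensembl gene, and FPKM values, which are counts divided by a transcript length and by the library's total. HISAT2 2.2.0, SAMtools 1.15.1, featureCounts 2.0.1 and the genome build hg38 come, per the submitters' processing notes, without options. Annotation release, strand setting and multi-mapping options are not stated. No column belonged to other samples. Total counts were 10889986 to 28576566 per library.

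Counts were tested with edgeR 4.0.16 in R 4.3.3 (TMM, filterByExpr with a minimum count of 10, quasi-likelihood F test, line and IL-2 time as additive terms, 1 residual degree of freedom) with Benjamini-Hochberg adjustment over 17492 genes, an adjusted p under 0.05 being a call. The SE is the log2 difference divided by the square root of F. The labels do not say that the libraries came from separate cultures. With no combination repeated, the spread behind the p-values is taken from how the line difference changes between the IL-2 times. That change may be technical or a true dependence of the line difference on IL-2 time, which cannot be told apart here. Single-library ratios are ratios of TMM-scaled CPM with exact conditional binomial 95% intervals, without a test. Intervals and the floor of 3 counts cover counting error only. Positions, GC content and overlaps came from GENCODE release 29 on GRCh38. The fits were tested on simulated data. DESeq2 1.42.0, its size factors, no filter, thinning, single-factor models, neighbour and GC or length offsets and leaving out each library were alternatives. All 34 genes are named, and of 56 other pathway genes the called ones with up to 4 of the largest changes in each direction. The genes and lists were chosen with earlier results of these data known.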

Additional observations from a re-analysis of the deposited data

Results flagged for a closer look

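In 6 genes the ratio of ΔOGT-ISS over WT had a counting interval above 1 in the 24 h libraries and below 1 in the 48 h libraries. The ratios at 24 h and 48 h were 1.11 and 0.479 for INSIG1, 1.21 and 0.707 for HMGCS1, 1.12 and 0.551 for MSMO1, 1.33 and 0.707 for SC5D, 1.18 and 0.839 for DHCR7, and 1.57 and 0.759 for SCD. In 3 of them the ratio of 24 h over 48 h also lay above 1 in ΔOGT-ISS and below 1 in WT, at 1.35 and 0.668 for MSMO1, 1.35 and 0.719 for SC5D, and 1.66 and 0.803 for SCD. Each ratio compares 1 library with 1 other, and the difference between the times or between the lines was not tested. No group has enough samples for a check on single outlying libraries.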

How the results depend on the processing

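For the line difference, calls over all genes were 26 higher and 55 lower in ΔOGT-ISS. They came to 49 and 105 with DESeq2 size factors, 168 and 378 without the low-count filter, 90 and 213 with the DESeq2 test, 14 and 30 after thinning both 24 h libraries to 48 h depth, 0 and 0 with line alone in the model (94 and 148 at an unadjusted p under 0.05), and 10 and 26 with the median of neighbouring genes removed. Leaving out each library gave 0 to 12 higher and 0 to 4 lower. Of the 34 genes, 0 were called in either direction under these settings, except 1 higher and 1 lower without the filter and 1 lower with the DESeq2 test. With a library left out the other factor is dropped from the model, so the line and time differences mix.

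For IL-2 time, calls over all genes were 1053 higher with GC and length offsets (2625 without) and 1183 lower without the low-count filter (1910 with it). Leaving out each library gave 701 to 2246 higher and 384 to 1411 lower. Of the 34 genes, 1 was called higher with the offsets and 7 lower with thinned libraries, against 9 and 4. Leaving out each library gave 2 to 9 higher and 1 to 7 lower. Without the filter the median of all genes moved by 0.22 on the log2 scale for time, and without the WT 24 h library by 0.10 for the line.

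Some log2 differences changed sign, and none of those that did had been called before, except SCAP and FASN under the GC and length offsets. For the line, these were SREBF1 0.075 and DHCR7 0.018 with thinned libraries, SREBF2 −0.0038 with DESeq2 size factors, SREBF2 −0.0038 with the DESeq2 test, SREBF2 −0.041 and HSD17B7 −0.012 without the filter, SREBF2 −0.014, CYP51A1 −0.0085 and DHCR7 0.058 with line alone, and SREBF2 −0.15, DHCR7 0.035, ACLY 0.029 and FASN −0.013 with neighbours removed. For time they were ACAT2 −0.018, FDPS −0.016 and ACACA −0.013 with DESeq2 size factors, ACAT2 −0.018, FDPS −0.016 and ACACA −0.013 with the DESeq2 test, ACAT2 −0.019 and FDPS −0.053 with thinned libraries, MSMO1 0.14, SC5D 0.19, ACLY 0.18 and ELOVL6 0.15 without the filter, and SREBF1 −0.27, SCAP −0.25, ACAT2 −0.050, PMVK −0.29, FDPS −0.44, MSMO1 0.33, EBP −0.024, SC5D 0.29, ACACA −0.092, FASN −0.26, FADS1 −0.071, FADS2 −0.059 and ELOVL6 0.17 with the offsets. Leaving out each library, the line difference ranged over SREBF1 −0.68 to 0.48, SREBF2 −0.55 to 0.58, SCAP −0.51 to 0.59, INSIG1 −1.06 to 0.13, INSIG2 −1.35 to 0.64, HMGCS1 −0.70 to 0.48, MVK −0.63 to 0.84, MVD −1.03 to 1.26, FDFT1 −0.65 to 0.16, LSS −0.46 to 1.26, CYP51A1 −1.16 to 1.95, TM7SF2 −2.18 to 0.65, HSD17B7 −0.29 to 0.35, SC5D −0.33 to 0.17, DHCR7 −0.63 to 0.49, STARD4 −0.54 to 0.78, FASN −0.71 to 0.79, SCD −0.30 to 0.48, FADS1 −0.23 to 0.12, FADS2 −1.11 to 0.31, ABCA1 −0.42 to 1.36 and MYLIP −0.96 to 1.05. The time difference ranged over ACAT2 −0.065 to 0.20, IDI1 −0.93 to 0.043, FDPS −0.046 to 0.18, SQLE −0.80 to 0.31, MSMO1 −0.50 to 0.45, EBP −0.044 to 0.51, SC5D −0.26 to 0.33, ACLY −0.076 to 0.10, SCD −0.055 to 0.59, ELOVL6 −0.45 to 0.45 and ABCG1 −2.56 to 0.62. With a library left out the other factor is dropped, so these ranges hold both the line and the time difference. The cause of the other sign changes was not tested.

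The labels carry no replicate numbers, so libraries could not be paired by culture. Each line has 1 library at each time, and with IL-2 time as a term the model compares the lines within each time. Depth limits ABCA1, with at most 14 counts in a library, and the 48 h values of SREBF1, CYP51A1 and TM7SF2. No culture was repeated, so the spread between cultures at a given line and time is unknown.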

Other observations

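GPAM, the acyltransferase of the outer mitochondrial membrane that starts glycerolipid synthesis, had line ratios on the opposite sides of 1 to those of MSMO1 and SCD. It was picked from the list of other pathway genes after its values were seen. It had 52.6 CPM in ΔOGT-ISS against 121 in WT at 24 h, a ratio of 0.436 (interval 0.409 to 0.464), and 162 CPM in ΔOGT-ISS against 78.9 in WT at 48 h, a ratio of 2.06 (interval 1.90 to 2.24). ACSL1, chosen in the same way for this comparison, had ratios of 0.606 (interval 0.575 to 0.638) at 24 h and 1.20 (interval 1.14 to 1.26) at 48 h. Averaged over both times the log2 differences were −0.087 (SE 0.45, edgeR adjusted p = 0.986) for GPAM and −0.23 (SE 0.24, edgeR adjusted p = 0.909) for ACSL1, and the turn between the times was not tested.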
